A study of Mus musculus with 48 samples.

Results

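The Notch pathway was followed through 10 genes: the receptors Notch1, Notch2 and Notch3, the ligands Dll1 and Jag1, the DNA-binding effector Rbpj, and the targets Hes1, Hes5, Hey1 and Hey2. They are defined by their symbols, with no threshold on a measured value, and all 10 were found among the 24421 genes listed in each table. The 48 mouse RNA-seq libraries were made from cells labelled astrocytes of the cortex, the hippocampus and the olfactory bulb. Cortex libraries came from postnatal day 1 (P1, 3 libraries), day 7 (P7, 3) and day 14 (P14, 4). For hippocampus and olfactory bulb there were 3 libraries at each of P1, P7 and P14, and no genotype or treatment is given for any developmental library. At P28, libraries labelled Gabbr1 control were set against libraries labelled Gabbr1 cKO, a conditional knockout of a GABA-B receptor subunit gene: 4 against 4 in cortex, 2 controls against 4 cKO in hippocampus, and 3 against 3 in olfactory bulb. A tamoxifen treatment is labelled for every P28 hippocampus and olfactory bulb library, control and cKO, and for 3 of the 8 P28 cortex libraries (control replicates 3 and 4 and cKO replicate 4). The alleles, the Cre driver and its promoter, and the strain are not given in the sources used here. Nothing says which libraries came from separate animals, so p-values measure only the spread between libraries, which may be partly technical.

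Notch receptors are cleaved when a ligand of the Delta or Jagged families on a neighbouring cell binds them. The freed intracellular part enters the nucleus, joins the DNA-binding protein Rbpj and its co-activators, and switches on Hes and Hey genes, whose products are repressors of transcription. In the developing brain the pathway is known for holding progenitors back from neuronal differentiation, for favouring glial fates, and for its part in mural cells of blood vessels, where Notch3 is a well known receptor.

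Hes5, Hey2, Notch3 and Dll1 had some of the largest shifts with age among the members. The 250 bases before a RefSeq start of each (GRCm38.p6) are therefore shown, 5′ to 3′ on the gene's strand. Capitals mark TGGGAA, the core of the motif that Rbpj binds, or its reverse complement TTCCCA, searched on both strands.
Hes5, chr4:154960673-154960922, plus strand: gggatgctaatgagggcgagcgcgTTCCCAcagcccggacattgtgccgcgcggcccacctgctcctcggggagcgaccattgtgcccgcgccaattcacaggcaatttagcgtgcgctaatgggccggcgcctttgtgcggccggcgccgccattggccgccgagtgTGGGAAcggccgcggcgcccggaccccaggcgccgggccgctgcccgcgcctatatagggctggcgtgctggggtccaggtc
Hey2, chr10:30842784-30843033, minus strand: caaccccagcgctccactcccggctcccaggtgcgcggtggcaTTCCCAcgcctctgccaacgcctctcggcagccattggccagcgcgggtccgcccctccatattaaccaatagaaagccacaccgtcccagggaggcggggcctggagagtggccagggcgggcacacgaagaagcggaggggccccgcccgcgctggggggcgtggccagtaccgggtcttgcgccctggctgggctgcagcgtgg
Notch3, chr17:32166891-32167140, minus strand: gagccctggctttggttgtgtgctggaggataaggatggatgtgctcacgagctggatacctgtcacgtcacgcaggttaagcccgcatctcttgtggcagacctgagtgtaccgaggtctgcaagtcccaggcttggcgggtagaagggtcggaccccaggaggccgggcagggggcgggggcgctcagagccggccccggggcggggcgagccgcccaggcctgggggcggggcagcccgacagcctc
Dll1, chr17:15375824-15376073, minus strand: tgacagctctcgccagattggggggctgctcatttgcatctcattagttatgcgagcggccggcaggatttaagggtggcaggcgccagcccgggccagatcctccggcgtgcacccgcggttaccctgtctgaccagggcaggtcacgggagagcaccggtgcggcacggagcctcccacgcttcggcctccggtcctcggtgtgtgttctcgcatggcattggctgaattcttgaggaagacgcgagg
In the Hes5 window there were 2 matches, starting 226 and 82 bases before the start, and in the Hey2 window 1, at 207 bases. The Notch3 window and the Dll1 window shown, like the other Dll1 window in the table, held none. The Dll1 window shown belongs to a start inside the annotated gene. The other, chr17:15376933-15377182, lies before the gene's first base. Of the 8 members with a window in the RefSeq table, 3 had a match (Hes5, Hey2 and Rbpj). The same letters lie in 21.6% of all 32851 windows of this length, so a match here describes the sequence only. Hes1 and Hey1 were not among the windows.

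Values are normalized read counts, that is, reads divided by a factor for each library, and the tables were scaled separately, so each comparison stays inside a table. Libraries held 1773226 to 15008466 reads. From P1 to P14 depth fell without overlap in 2 regions. Olfactory bulb libraries held 5473837 to 9062118 reads at P1 and 1773226 to 2669394 at P14. Hippocampus libraries held 5098757 to 8986015 and 2539583 to 4248087, and cortex libraries 14070691 to 14513455 and 7838934 to 15008466, which overlap. Cortex P7 libraries were shallower, at 4828515 to 7850503 reads, all below the cortex P1 libraries. Zeros and values of a few reads at P14 in olfactory bulb and hippocampus thus come from shallower libraries than at P1. The ribosomal transcript Rn45s took 13.7% to 38.0% of the reads in 46 libraries. The other 2, replicate 2 of the hippocampal P28 cKO group (0.594%) and replicate 2 of the olfactory bulb P28 controls (0.476%), also list Hes5 at 0. In the libraries labelled cKO, Gabbr1 was at 9.23% of the control mean in cortex (limma adjusted p = 4.4e-05), 29.8% in hippocampus (adjusted p = 0.936, 0.0296 without cKO replicate 2) and 34.9% in olfactory bulb (adjusted p = 0.877, 0.0257 with DESeq2). All 11 cKO libraries lay below every control of their region. Astrocyte markers (10 of 10, Aldh1l1 and Aqp4 among them) had reads in every library, and their summed value was far lower at P1 than at P14: cortex held 21366 to 28242 against 496464 to 554981, hippocampus 13833 to 15917 against 427309 to 461104, and olfactory bulb 5043 to 7167 against 124253 to 141312. These sums are weighted to abundant genes, and single markers rose unevenly. Cortex Aldh1l1 had a mean of 741 ± 35.6 at P1 and 1017 ± 67.7 at P14, and Aqp4 of 1729 ± 388 and 9101 ± 276. Olfactory bulb Aldh1l1 was at 186 ± 11.2 and 526 ± 53.2, and Aqp4 at 128 ± 20.7 and 16455 ± 1582. Markers of migrating neuroblasts, among them Dcx, ran the other way, for example from 25201 to 27360 at P1 to 2186 to 4006 at P14 in olfactory bulb. In bulk samples, fewer cells of a type and less RNA per cell cannot be told apart.

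From P1 to P14 all 4 targets rose in olfactory bulb together with Notch2 and Notch3, while Dll1 and Rbpj fell in all 3 regions. A gene was counted as changed at an adjusted p under 0.05 in limma (log2(value + 1), genes with a mean value of at least 10, Benjamini-Hochberg over all genes). In olfactory bulb 6 of the 10 members rose (Notch2, Notch3, Hes1, Hes5, Hey1 and Hey2) and 2 fell (Dll1 and Rbpj), where 56.1% of all genes tested changed, 24.8% rose and 31.4% fell. In cortex 3 rose (Hes5, Hey1 and Hey2) and 2 fell (Dll1 and Rbpj), beside 64.4% of all genes changed, 24% up and 40.3% down. In hippocampus 2 rose (Notch3 and Hey1) and 3 fell (Dll1, Jag1 and Rbpj), beside 49.5%, 21% up and 28.5% down. With 5 of 10 members changed in each, the share in hippocampus was thus near that of all genes and the share in cortex below it. The members' median log2 change was 1.86 for olfactory bulb, 0.11 for cortex and -0.40 for hippocampus, beside -0.24, -0.27 and -0.29 for all genes tested.

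**Figure D1:**
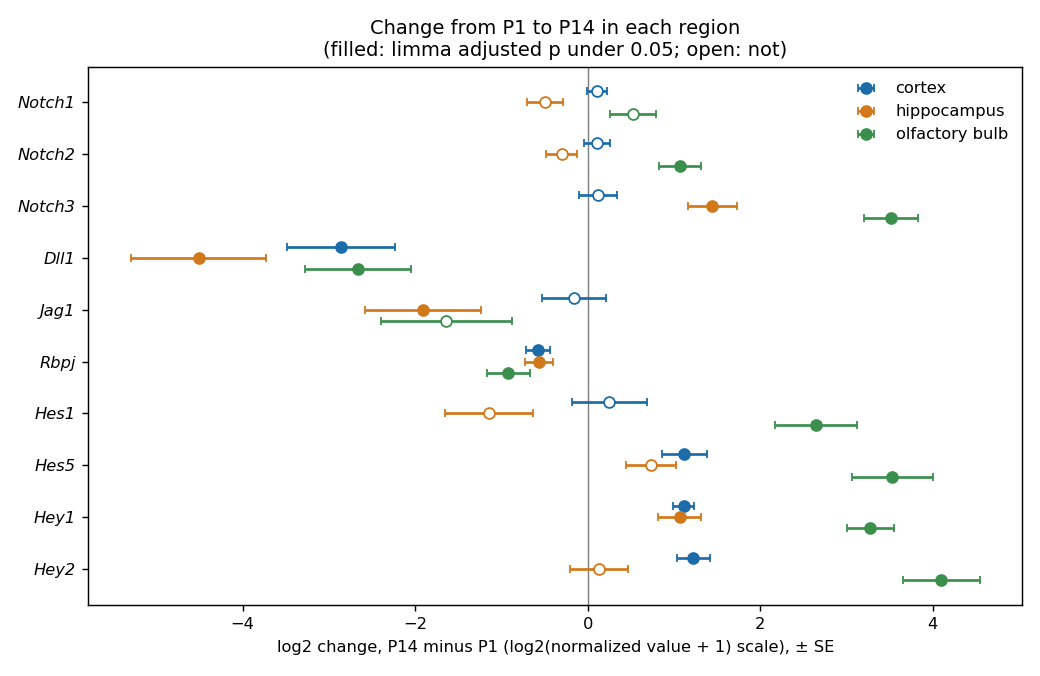
Change from P1 to P14 of each member (log2 scale, P14 minus P1, bars are the SE of the limma fit) in cortex, hippocampus and olfactory bulb. Filled points passed an adjusted p of 0.05. Hey2, Hes5, Notch3, Hey1 and Hes1 lie furthest to the right in olfactory bulb, at 4.10, 3.53, 3.52, 3.28 and 2.64, and Dll1 lies to the left in each region.

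Among the receptors, Notch3 (chr17:32120820-32166852, minus strand) had the largest P1 to P14 rises, in olfactory bulb and hippocampus. Its values in olfactory bulb were 14.3, 23.8 and 14.3 at P1, then 55.3, 82.2 and 52.8 at P7, then 161, 276 and 194 at P14. With no overlap between ages, its mean of 17.5 ± 5.45 (SD, n = 3) at P1 became 210.3 ± 59 at P14, a log2 change of 3.52 ± 0.32 (SE, limma adjusted p = 4.94e-06). Hippocampus libraries held 56.6, 89.1 and 47.3 at P1, 128, 181 and 178 at P7 and 184, 204 and 133 at P14. There P7 lay above P1 (1.36 ± 0.28, adjusted p = 0.00587), as did P14 (1.44 ± 0.28, adjusted p = 0.00133), and the P7 and P14 libraries overlapped. Cortex libraries held 138, 128 and 111, then 248, 234 and 177, then 81.7, 162, 172 and 149. Cortex Notch3 rose to P7 (0.79 ± 0.24, adjusted p = 0.0216) and fell to P14 (-0.67 ± 0.23, adjusted p = 0.0241), and P14 and P1 overlapped. The rise was lost without cortex P1 replicate 3, P7 replicate 1 or P7 replicate 2 (adjusted p 0.0676 to 0.08), and the fall without P7 replicate 1 or 2 (0.0957 and 0.0694).

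Notch1 and Notch2 are receptors well known in neural progenitors and glia, and both had higher means than Notch3 per kilobase of exon at P1 in every region. Notch1 (chr2:26457903-26516663, minus strand) ran in cortex at 449, 464 and 419.8 at P1, 711, 718 and 518 at P7 and 464, 452, 517 and 480.2 at P14. P7 stood above both other ages, with a change of 0.53 ± 0.12 up to it (adjusted p = 0.00486) and of -0.43 ± 0.12 after it (adjusted p = 0.00802). Notch2 (chr3:98013527-98150361, plus strand) had the same course in cortex, at 255, 328 and 391, then 539.5, 666 and 615, then 377, 282, 373 and 353. Its changes were 0.92 ± 0.16 (adjusted p = 0.000563) and -0.81 ± 0.15 (adjusted p = 0.000515), and P14 overlapped P1 for both receptors. Scaled by TMM, the cortex P14 against P1 change of Notch1 passed the test upward (0.39, adjusted p = 0.00955), as did that of Notch2 (0.39, adjusted p = 0.0362). That of Notch1 also passed upward with edgeR (0.33, adjusted p = 0.0288) and DESeq2 (0.35, 0.0125). The Notch1 fall from P7 to P14 did not pass with TMM (adjusted p = 0.101), edgeR (0.0547) or DESeq2 (0.0705). The scale matters in cortex, where the median gene moved by -0.27 from P1 to P14 on the deposited scale and by 0.01 under TMM. Of all cortex genes 2843 rose and 4765 fell over that span on the deposited scale, beside 3819 and 3640 under TMM. The hippocampal median was -0.29 as deposited, -0.25 under TMM and -0.08 with edgeR, and that of olfactory bulb -0.24, -0.20 and -0.05.

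In hippocampus, Notch1 ranged over 460.2 to 777 at P1, 599.9 to 736 at P7 and 335 to 528 at P14. It fell from P7 to P14 (-0.70 ± 0.21, adjusted p = 0.0272), a call lost without P7 replicate 1 or 2 or P14 replicate 1 or 3 (adjusted p 0.0538 to 0.102). Hippocampal Notch2, at 611 ± 136, 656 ± 73.4 and 492 ± 78.5, passed no test, though its fall from P7 passed without P14 replicate 1 (-0.55, adjusted p = 0.0438) and with quantile normalization (-0.70, 0.0085). From P1 to P14, quantile normalization called it lower as well (-0.49, 0.026), and Notch1 also (-0.68, 0.0113). The hippocampal Notch1 fall over that span, -0.49 ± 0.21 with an adjusted p of 0.0724, passed too without P1 replicate 3 (0.0339) or P14 replicate 2 (0.0215). In olfactory bulb Notch2 rose from 131, 166 and 153 at P1 to 316, 427 and 230.5 at P14, with 261, 323 and 208 at P7. The P14 libraries all lay above the P1 libraries, a change of 1.07 ± 0.24 (adjusted p = 0.00303). Its step from P1 to P7, 0.79 ± 0.24 at an adjusted p of 0.0602, passed with edgeR (0.0452), DESeq2 (0.0108), quantile normalization (0.045) or the 2 ages alone (0.00729), and without P7 replicate 3, P14 replicate 2 or P14 replicate 3 (0.0286 to 0.0396). Notch1 there was at 241 ± 54, 268 ± 87.2 and 347 ± 91.2, with a P14 against P1 difference of 0.52 ± 0.27 that did not pass (adjusted p = 0.117).

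The ligand Dll1 (chr17:15367354-15376872, minus strand), a Delta family protein typical of cells committing to a neuronal fate, was scarce by P14. In hippocampus it was listed at 43.8, 47.7 and 46.7 at P1, then 90.0, 65.7 and 9.46 at P7, then 2.15, 0 and 1.79 at P14. The 3 P14 libraries held 3 reads of it together, none more than 2, so its P1 to P14 ratio was 36.6 with an exact 95% Poisson interval of 12.4 to 178 (counting error only). Cortex libraries held 24.4, 16.9 and 19 at P1, 19, 24.7 and 9.06 at P7 and 2.65, 1.26, 0 and 7.27 at P14, and all P14 libraries lay below all earlier ones. That ratio was 8.09 (5.26 to 13), on 23 reads at P14. Olfactory bulb libraries held 31.2, 46.7 and 56.3, then 33.8, 31.5 and 27.3, then 7.95, 15.2 and 1.39, with a ratio of 5.23 (3.17 to 9.27) on 16 reads at P14. The P14 against P1 falls had limma adjusted p-values, for cortex, hippocampus and olfactory bulb in turn, of 0.00127, 0.000582 and 0.00344, and those against P7 of 0.00398, 0.00205 and 0.0134. Under quantile normalization the falls from P7 did not pass in cortex (adjusted p = 0.101) or hippocampus (0.0627). P1 and P7 overlapped in every region.

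Jag1 (chr2:137081456-137116644, minus strand), the Jagged ligand, was uneven between libraries at P14. At that age cortex libraries held 32.2, 16.4, 50.5 and 26.5, hippocampus libraries 8.6, 48.5 and 5.37 and olfactory bulb libraries 3.98, 66.2 and 37.5. In hippocampus P14 replicate 2 stayed close to the P1 values of 52, 53 and 54.7 while the other P14 libraries were far lower, a change of -1.91 ± 0.67 (adjusted p = 0.0343). That call did not pass with edgeR (adjusted p = 0.129), DESeq2 (0.11) or quantile normalization (0.0734). It was also lost without P1 replicate 1, 2 or 3, P7 replicate 2, or P14 replicate 1 or 3 (0.0506 to 0.111). Cortex Jag1 was at 34.5 ± 13.8, 47.1 ± 10.9 and 31.4 ± 14.3, and olfactory bulb Jag1 at 73 ± 14.9, 49.3 ± 18.4 and 35.9 ± 31.1, with no P1 to P14 change that passed. Without olfactory bulb P14 replicate 2 the P14 against P1 fall there passed (-2.40, adjusted p = 0.0153). The P7 to P14 difference passed in hippocampus without P14 replicate 2 (-2.72, adjusted p = 0.00122) and in cortex without P14 replicate 3 (-0.92, 0.0496).

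Rbpj (chr5:53466152-53657362, plus strand), the partner of all cleaved Notch receptors, fell from P1 to P14 in each region. Olfactory bulb libraries held 347, 418 and 435 at P1, 206, 267 and 294 at P7 and 141, 291 and 226 at P14. Hippocampus libraries held 397, 452 and 366, then 304, 303 and 246, then 244, 304 and 271. Cortex libraries held 276, 246 and 238, then 224, 266 and 229, then 145, 167, 156 and 216. P14 lay below P1 without overlap in all 3, at -0.92 ± 0.25 in olfactory bulb (adjusted p = 0.00889), -0.57 ± 0.16 in hippocampus (0.0123) and -0.57 ± 0.14 in cortex (0.00266). In cortex the fall did not pass with TMM scaling (-0.29, adjusted p = 0.0921) or DESeq2 (-0.32, 0.0704), and in hippocampus it was lost without P1 replicate 2 (adjusted p = 0.0518). The step from P1 to P7 passed in hippocampus at adjusted p = 0.0484 and was lost when any of its 6 libraries was left out (0.0753 to 0.178). In olfactory bulb that step, -0.65 ± 0.25 at an adjusted p of 0.13, passed without P14 replicate 1 (0.0394) and with the 2 ages alone (0.0116). Reads of the annotated pseudogenes Rbpj-ps1 and Rbpj-ps3, which the tables do not list, could share its count. Annotated genes on the opposite strand overlap Rbpj, Notch1, Notch3, Dll1 and Hes5, and the strand setting of the count is not given in the sources used here.

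The targets split by region. Hes5 (chr4:154960923-154962371, plus strand), whose RefSeq start window is printed above with 2 matches, is the classic read-out of Notch activity in neural progenitors. Its olfactory bulb values were 7.89, 12.8 and 7.17 at P1, 47.3, 72.2 and 17.8 at P7 and 137, 108 and 101 at P14. Each age lay above the one before, and the whole change was 3.53 ± 0.47 (adjusted p = 8.63e-05). Hippocampus libraries held 46.7, 73.1 and 76.2, then 177, 224 and 223, then 86, 91.5 and 156, a rise to P7 of 1.68 ± 0.29 (adjusted p = 0.00167) and a fall to P14 of -0.94 ± 0.29 (adjusted p = 0.0292). Hippocampal P14 still lay above P1 without overlap, at an adjusted p of 0.0522 that became 0.0428 with TMM, 0.036 with edgeR and 0.0162 with DESeq2. Cortex libraries held 39.8, 80.3 and 96.7, then 178, 148 and 135, then 175, 179.9, 136 and 113. Cortical Hes5 rose to P7 (1.16 ± 0.28, adjusted p = 0.00599) and P14 overlapped P7. The hippocampal fall was lost without P7 replicate 1, 2 or 3 or P14 replicate 1 or 2 (adjusted p 0.0546 to 0.11). In olfactory bulb the P1 to P7 step was lost without P1 replicate 1 or 3 or P7 replicate 1 or 2 (0.0734 to 0.105), and the P7 to P14 step without P7 replicate 3 or P14 replicate 1 (0.0797 and 0.0532).

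Hey1 (chr3:8663359-8667256, minus strand), a target known in glia and in vessels, was higher at P14 than at P1 in all 3 regions. In olfactory bulb it held at 37.6, 41.8 and 24.3 at P1 and 46.1, 55.8 and 34.4 at P7, then stood at 359.8, 368 and 285 at P14. It rose after P7, by 2.88 ± 0.28 (adjusted p = 1.83e-05), while P7 overlapped P1. Cortex libraries held 160.0, 181 and 185, then 284, 228 and 208, then 361, 359.7, 382 and 415, a total of 1.11 ± 0.12 (adjusted p = 3.03e-06) spread over both steps. The first cortical step (0.44 ± 0.13, adjusted p = 0.018) was lost without P1 replicate 1 or P7 replicate 1 (0.0657 and 0.0868). Hippocampus libraries held 157, 155 and 133, then 161, 225 and 249, then 402, 217 and 342, and the total of 1.06 ± 0.25 passed (adjusted p = 0.00377). The step from P7 to P14, 0.57 ± 0.25, did not pass (adjusted p = 0.0998) but did without P14 replicate 2 (0.83, 0.0122) and with DESeq2 (0.66, 0.0393).

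Hey2 (chr10:30832359-30842801, minus strand), a related repressor whose start window above holds 1 match, had the largest P1 to P14 rise of any member, in olfactory bulb. Olfactory bulb libraries held 12.9, 7.93 and 4.41 at P1, then 19, 54.3 and 31.4 at P7, then 137, 139 and 174 at P14. The 3 ages did not overlap and the change was 4.10 ± 0.45 (adjusted p = 2.06e-05). The P1 to P7 step there was lost without P1 replicate 2 or 3 or P7 replicate 2 (adjusted p 0.063 to 0.107). Cortex libraries held 30.1, 37.3 and 47.7, then 75.6, 65.7 and 78.9, then 104, 78, 91.1 and 85.7, and most of the change was made by P7 (0.94 ± 0.20 of 1.22 ± 0.19). Hippocampus libraries held 53.1, 41 and 55.3, then 54.3, 46.9 and 43.5, then 37.6, 71.7 and 59.1, overlapping throughout with a P14 against P1 difference of 0.13 ± 0.33 (adjusted p = 0.764).

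Hes1 (chr16:30064384-30067796, plus strand), a repressor of progenitors known to oscillate, rose in olfactory bulb and peaked at P7 in cortex. In olfactory bulb it went from 6.45, 6.6 and 5.52 at P1 through 17.8, 42.2 and 14.2 at P7 to 39.8, 33.1 and 63.9 at P14, a change of 2.64 ± 0.47 (adjusted p = 0.000683). The step to P7 passed at adjusted p = 0.0441 and not with a pseudocount of 8 (0.0604), without the filter (0.066) or with quantile normalization (0.061), nor without any P1 library or P7 replicate 1 or 2 (0.101 to 0.223). Cortex libraries held 6.25, 19.4 and 30.5, then 55.4, 50.3 and 43.5, then 24.6, 17, 25.2 and 11.9, so that P7 stood above both other ages. The cortical changes were 1.60 ± 0.47 (adjusted p = 0.0176) and -1.34 ± 0.44 (adjusted p = 0.0206). The rise was lost without P1 replicate 1 or P7 replicate 1 (0.0665 and 0.0596), and the fall without P7 replicate 1 or P14 replicate 4 (0.0715 and 0.0563) or with quantile normalization (0.0588). Hippocampus libraries held 64.8, 76.6 and 65.7, then 99, 134 and 67.2, then 12.9, 71.7 and 30.5. The fall from P7 passed (-1.62 ± 0.51, adjusted p = 0.0331) although P14 replicate 2 overlapped P7, and not with edgeR (0.0592) or when 7 of the 9 hippocampus libraries were left out in turn (0.0501 to 0.138).

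**Figure D2:**
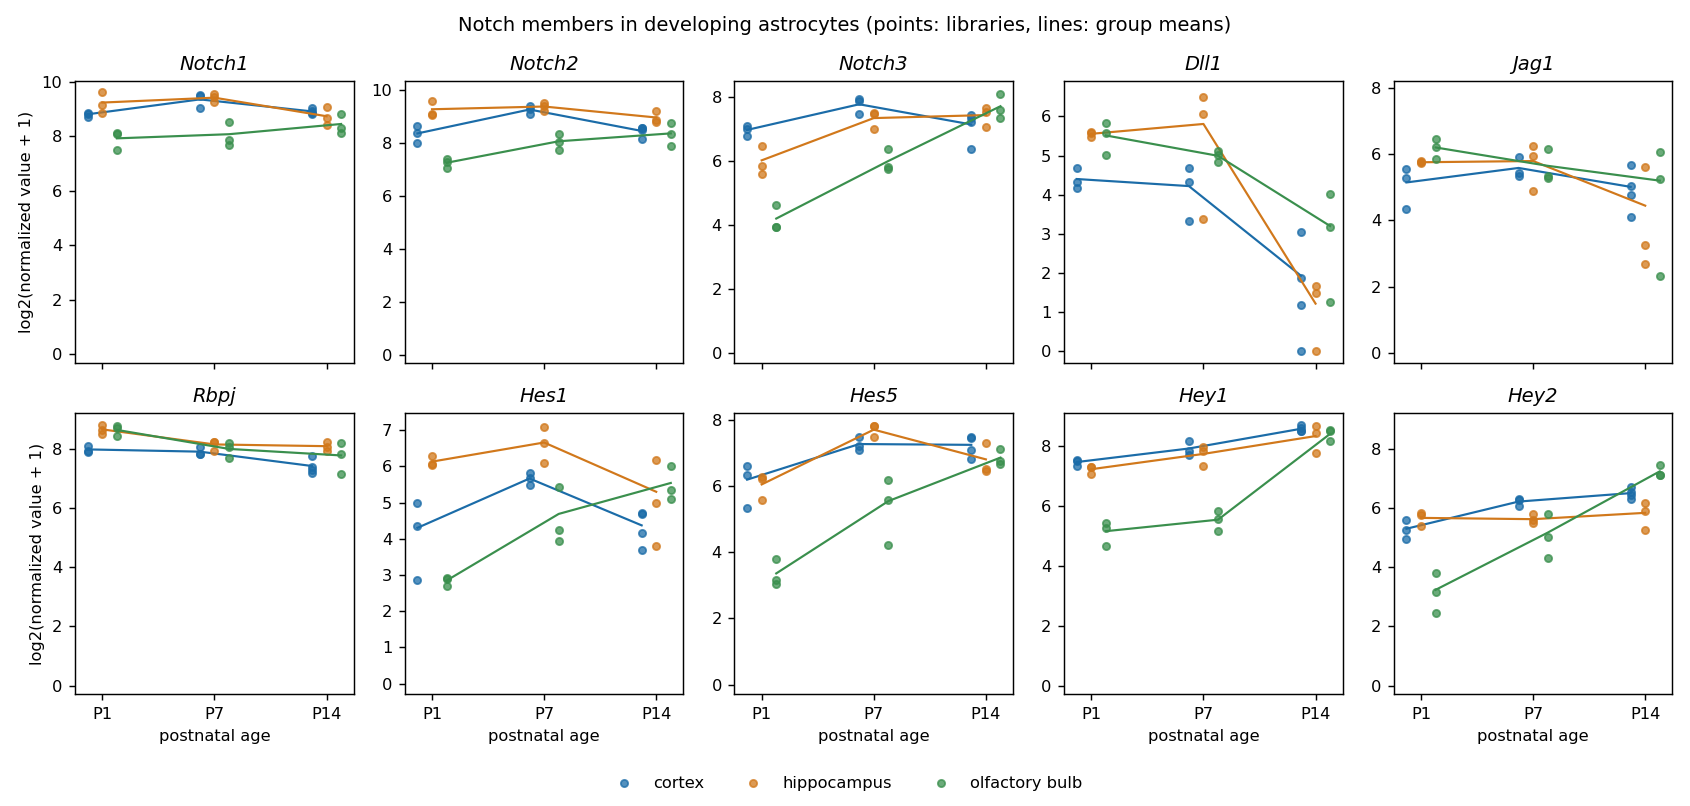
Each member at P1, P7 and P14 as log2(normalized value + 1) by region, with points for libraries and lines through the group means. Olfactory bulb Notch3, Hes5 and Hey2 climb at both steps and Hey1 climbs after P7, whereas cortical Notch1, Notch2, Notch3 and Hes1 peak at P7 and Dll1 drops at P14. The tables were scaled separately, so heights of different regions are not compared.

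Counted by step, 7 of 10 members rose from P1 to P7 in cortex (Notch1, Notch2, Notch3, Hes1, Hes5, Hey1 and Hey2) and none fell, where 33.7% of all genes changed, 15.6% up and 18.1% down. The count was 4 without cortex P7 replicate 1, where Notch3, Hes1 and Hey1 were lost. In olfactory bulb 4 rose over the same step (Notch3, Hes1, Hes5 and Hey2) against 10.6% of all genes changed, 7.59% up and 2.98% down. That count was 1 without P1 replicate 3, and also 1 without P7 replicate 2. In hippocampus 2 rose (Notch3 and Hes5) and 1 fell (Rbpj), against 18.1% (11.2% up, 6.92% down).

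From P7 to P14 cortex had 1 rise (Hey1) and 6 falls (Notch1, Notch2, Notch3, Dll1, Rbpj and Hes1), with 49.8% of all genes changed, 18.6% up and 31.3% down. With TMM scaling, edgeR or DESeq2 the cortical falls of Notch1, Notch3 and Rbpj did not pass, so 4 members changed, 1 up and 3 down. Over all cortex genes at that step, 2197 rose and 3696 fell on the deposited scale and 3006 rose and 2738 fell under TMM. Hippocampus had 4 falls (Notch1, Dll1, Hes1 and Hes5) and no rise, against 30.1% of all genes (12.5% up, 17.7% down). It had 1 fall without P7 replicate 1, and also 1 without P7 replicate 2. Olfactory bulb had 4 rises (Notch3, Hes5, Hey1 and Hey2) and 1 fall (Dll1), against 47% (20.4% up, 26.6% down). From P1 to P14 the hippocampal count of 5 was 3 without P1 replicate 2 and 8 without P14 replicate 2, where Notch1, Hes1 and Hes5 were gained.

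Whether the P1 to P14 change itself differed between regions was tested in a joint fit, each change being taken inside its own table. Olfactory bulb differed from cortex for 6 members, where 23.5% of the 10838 genes tested did and 17.5% were larger in olfactory bulb: Notch3 by 3.40 ± 0.40 (SE, limma adjusted p = 2.37e-07), Hey2 by 2.88 ± 0.46 (2.88e-05), Hes5 by 2.41 ± 0.51 (0.000809), Hes1 by 2.39 ± 0.71 (0.0137), Hey1 by 2.16 ± 0.31 (5.24e-06) and Notch2 by 0.96 ± 0.28 (0.0124). Olfactory bulb differed from hippocampus for the same 6 and Notch1, all with the larger change in olfactory bulb, against 18.2% of all genes and 11.9% in that direction. The largest of these differences were Hey2 at 3.97 ± 0.48 (1.16e-06) and Hes1 at 3.78 ± 0.73 (0.000505), and Notch1 differed by 1.01 ± 0.31 (0.0233). Hippocampus differed from cortex for Notch3, by 1.32 ± 0.40 (0.0244), against 14.2% of all genes and 10% in that direction. These directions depend on the scale: for hippocampus minus cortex 1086 genes were higher and 448 lower as deposited and 600 and 767 under TMM, and for olfactory bulb minus cortex 1901 and 644 as deposited and 1397 and 1116 under TMM. No difference passed for Dll1, Jag1 or Rbpj, whose olfactory bulb minus cortex differences were 0.20 ± 1.02, -1.48 ± 0.94 and -0.34 ± 0.27. The hippocampal Notch3 difference did not pass with TMM (adjusted p = 0.0732) or quantile normalization (0.0507), nor without any of cortex P1 replicate 1 or 2, cortex P14 replicate 1, or hippocampus P1 replicate 1 or 3 (0.0511 to 0.0841). Without cortex P1 replicate 3 the olfactory bulb minus cortex differences of Hes1 and Notch2 did not pass (0.0622 and 0.0508), and the latter also missed under TMM (0.0678). Without hippocampus P14 replicate 2 the hippocampus minus cortex differences of Jag1 (-2.64, adjusted p = 0.0372) and Hes1 (-1.99, 0.0414) passed as well. The Notch1 difference was lost without hippocampus P1 replicate 2 or P14 replicate 3, or olfactory bulb P1 replicate 1 or P14 replicate 3 (0.0582 to 0.0876).

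Vessel markers moved with several of these genes. In olfactory bulb the summed value of 6 endothelial markers (Cldn5 and Pecam1 among them) was 19.8 to 24.0 at P1, 86.6 to 116 at P7 and 137 to 1111 at P14, with all 6 detected in each library. The sum of 7 mural cell markers, which include Pdgfrb and Rgs5, was 66.0 to 96.0 at P1, 230 to 268 at P7 and 282 to 969 at P14, with the smooth muscle gene Acta2 at 0 in all P14 libraries. Olfactory bulb P14 replicate 1 had the lowest vessel sums at that age (137 endothelial, 282 mural, above all P1 and P7 libraries) and held Notch3 at 161, Hey1 at 359.8, Hes5 at 137 and Hey2 at 137, each above every P1 and P7 library. In hippocampus at P14 the endothelial sum was 1.79 to 52.9 with Cldn5 at 0, and the mural sum 139 to 249 with Acta2 and Myh11 at 0, while Notch3 was at 173 ± 36.8 and Hey1 at 320.5 ± 94.3. Hippocampal vessel sums were 46.1 to 118 endothelial and 136 to 214 mural at P1. They were highest at P7, at 285 to 595 endothelial and 404 to 592 mural, the age of the highest Hes5. In cortex the endothelial sum was 29.5 to 474, 309 to 414 and 79.2 to 590 at P1, P7 and P14 and the mural sum 81.5 to 399, 371 to 533 and 261 to 829. Cortex P1 replicate 1, with the lowest vessel sums of its age, also had the lowest Hes1, Hes5, Hey1, Hey2, Jag1 and Notch2 of that age and the highest Notch3, Dll1 and Rbpj. Markers of dividing cells summed to 954 to 1369 at P1 and 65.8 to 203 at P14 in cortex. Hippocampus held 2164 to 2251 and 380 to 946, and olfactory bulb 1322 to 1397 and 654 to 1451, which overlap. Oligodendrocyte precursor markers went from 131 to 168 up to 1176 to 1227 in olfactory bulb. In hippocampus they went from 363 to 564 up to 926 to 1035, and in cortex they overlapped, at 1204 to 1292 and 1048 to 1214. The precursor marker Pdgfra overlapped in olfactory bulb, at 56.3 to 85.7 and 45.8 to 203. Mature oligodendrocyte markers, Mbp among them, went from 334 to 381 up to 15201 to 26012 in cortex, from 72.3 to 91.3 up to 1603 to 2309.9 in hippocampus and from 98.7 to 186 up to 1919 to 2234 in olfactory bulb. Opalin was at 0 in every P1 library, and at P14 Mog and Opalin were at 0 in hippocampus and Mag and Opalin in olfactory bulb. Microglia markers went from 265 to 393 up to 1233 to 2555 in cortex, from 58.4 to 78.3 up to 234 to 545 in hippocampus and from 16.5 to 25.8 up to 189 to 347 in olfactory bulb. Choroid plexus markers in hippocampus summed to 12 to 53.1 at P1 and 4027 to 8457 at P14. The part of these cells in the results was not tested.

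**Figure D3:**
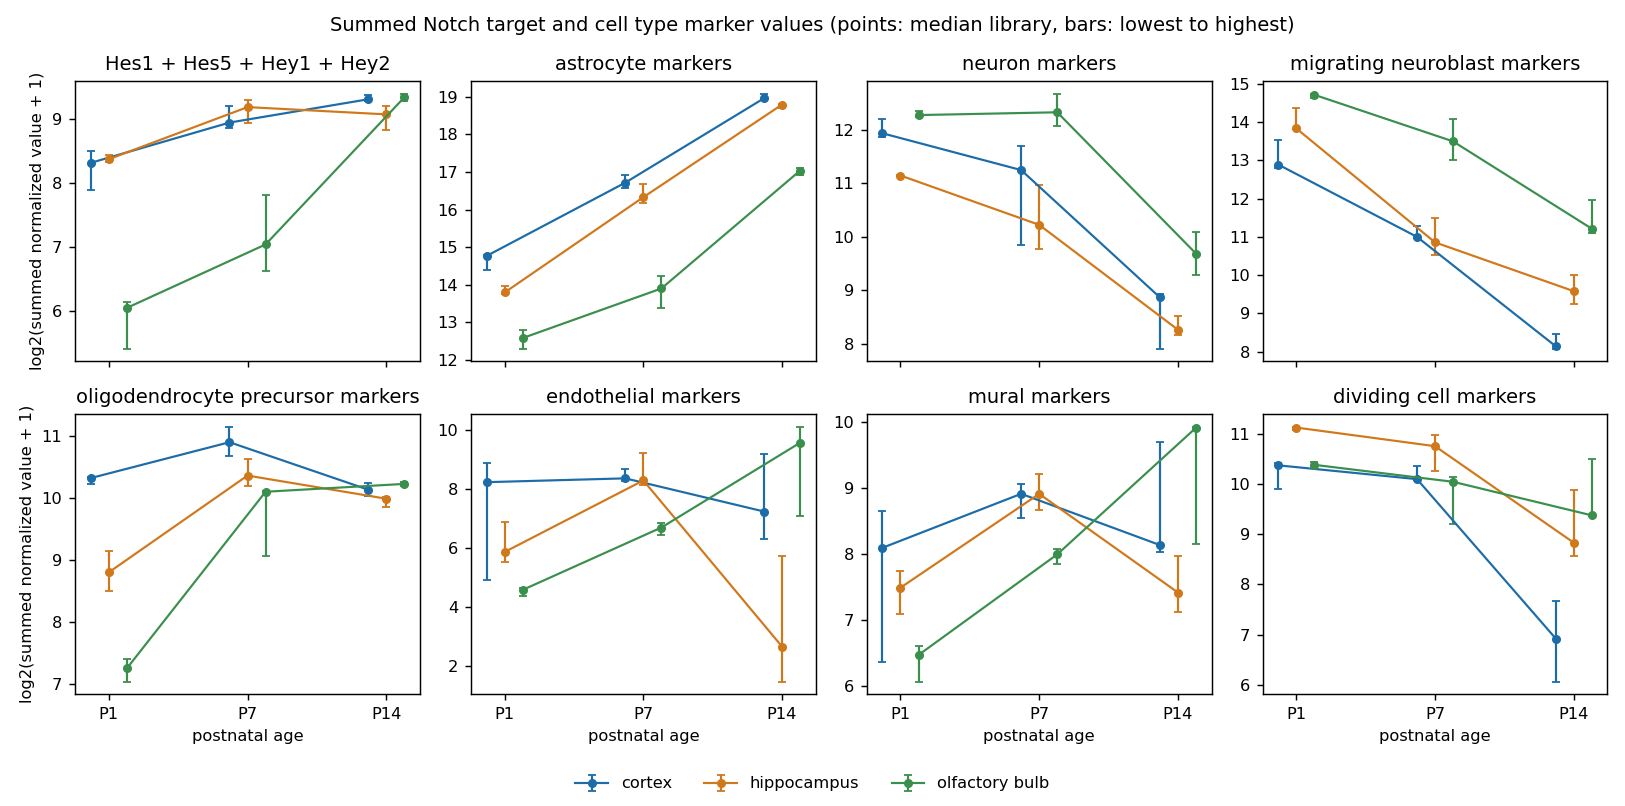
Summed normalized values (log2 scale) of the 4 targets and of cell type marker lists by age and region, with points at the median library and bars from the lowest to the highest. The olfactory bulb target sum is 41.4 to 69.1 at P1 and 623 to 674 at P14, and its astrocyte, endothelial, mural and precursor sums are also higher at P14 and its neuroblast sum lower. In hippocampus the target sum is 322 to 345 at P1 and 452 to 588 at P14. The endothelial sum there is 46.1 to 118 at P1 and 1.79 to 52.9 at P14, and the mural sum 136 to 214 and 139 to 249.

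Ranked by normalized value per kilobase of annotated exon within a group, a scale that allows genes to be set beside each other, Hey1 and Hes5 led at P14 in every region. Cortex P14 had Hey1 at 116 ± 7.96 and Hes5 at 111 ± 23.4 per kilobase (SD over libraries), which overlapped, followed by Notch1 at 33.6 ± 1.97 and Notch2 at 32.1 ± 4.07, which also overlapped, and Dll1 last at 0.662 ± 0.752. Hippocampus P14 had the same leaders, Hey1 at 98.1 ± 28.9 and Hes5 at 81.5 ± 28.5, overlapping, then Notch2 at 45.7 ± 7.28 ahead of Notch1 at 29.7 ± 6.87. In olfactory bulb the order turned over with age. At P1 Rbpj led at 31.4 ± 3.64, clear of Notch1 at 16.9 ± 3.8, while Hes1, Notch3 and Hey2 were lowest at 3.04 ± 0.29, 2.16 ± 0.674 and 1.83 ± 0.929, with Notch3 overlapping both of the others. At P14 Hey1 (103 ± 14.1) and Hes5 (84.6 ± 14) led there, Hey2 was next at 32.7 ± 4.45, and Rbpj was at 17.2 ± 5.89, overlapping Hes1 and Jag1 beside it. Exon length is the union of all annotated exons, 12750 bases for Rbpj against 1363 for Hes5, so genes with long rare exons are placed low.

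At P28, libraries labelled cKO were set against controls within each region, and no Notch member passed the test. Of the members tested, cortex had 0 of 9 called, hippocampus 0 of 10 and olfactory bulb 0 of 9, beside 0.00982%, 0% and 0% of all genes with limma. Dll1 was too low to test in cortex and olfactory bulb. Counts of called members were also 0 in the 3 regions with edgeR and DESeq2, which over all genes called 1, 0 and 0 (edgeR) and 1, 1 and 22 (DESeq2). At an unadjusted p under 0.05 limma gave 0, 1 and 1 members, beside 2.17% (221 of 10188), 2.54% (296 of 11639) and 3.02% (349 of 11539) of all genes. These are too few libraries for an exact permutation test to pass in hippocampus or olfactory bulb, where the smallest two-sided p it allows is 0.133 and 0.1.

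The hippocampal member with an unadjusted p under 0.05 was Notch1, at 257 and 377 for control libraries against 697, 784, 485 and 554 for cKO libraries. The groups did not overlap and the difference was 0.99 ± 0.31 (SE, limma adjusted p = 0.936), or 0.88 without cKO replicate 2. Notch2 was at 581 and 528 against 655, 969, 609 and 647 there and Notch3 at 19.6 and 26.7 against 48.4, 41.9, 31.1 and 27, both also without overlap, at differences of 0.35 ± 0.28 and 0.64 ± 0.56 (adjusted p = 0.936 for each). Rbpj lay the other way, at 282 and 285 against 225, 194, 269.9 and 236, a difference of -0.30 ± 0.28. Among the targets there, Hey1 was at 182 and 259.8 against 260.5, 344, 252 and 176 (0.21 ± 0.34) and Hes1 at 37.5 and 70.3 against 72.6, 96.8, 42.3 and 57 (0.32 ± 0.50), both overlapping. Notch1, Notch2, Notch3 and Rbpj, 4 members of 10, had no overlap between genotypes, beside 15% of all genes. Mural marker sums were also apart, at 143 to 205 in the controls, with Kcnj8 at 0, and 276 to 382 in the cKO libraries, and so were microglia sums, at 51.6 to 56.3 and 105 to 569. Endothelial sums were 141 to 173 and 157 to 426. Choroid plexus markers, Ttr among them, summed to 67643 to 138905 and 11229 to 126793, and the part of these cells in the differences was not tested.

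In olfactory bulb the member with an unadjusted p under 0.05 was Hey1, at 248, 131 and 197 in controls and 334, 319 and 394 in cKO libraries. The groups did not overlap, as for 10% of all genes, and the difference was 0.90 ± 0.29 (SE, limma adjusted p = 0.877). It was 0.65 without control replicate 2, the library with little Rn45s. Hes5 was at 121, 0 and 158 against 166, 151 and 188. Its difference of 2.65 ± 1.50 rested on the control listed at 0 and was 0.28 without it. Likewise the hippocampal Hes5 difference of -1.31 ± 1.69 was 0.35 without cKO replicate 2, the library listed at 0. Notch1 was at 295, 356 and 618 against 520.0, 609 and 640.4, a difference of 0.55 ± 0.29 with overlap. Hey2 was at 288, 149.8 and 449 against 297, 243 and 358 (0.14 ± 0.37) and Jag1 at 95.3, 225 and 75.7 against 112, 122 and 107 (-0.049 ± 0.41), and every cKO value of both genes lay inside the control range. The mural sum was 251 to 599 in the olfactory bulb controls and 528 to 609 in the cKO libraries, and its part was not tested.

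Cortex at P28 had 4 libraries in each genotype and no member without overlap, beside 1.89% of all genes. Hes5 ran at 44.4, 47.9, 140.3 and 85.7 in controls and 69.6, 85, 88.7 and 95 in cKO libraries, a difference of 0.24 ± 0.35. Hey2 ran at 24.3, 56, 71.3 and 46.3 against 58.3, 86, 71.9 and 47 (0.47 ± 0.37), Hey1 at 222, 187, 219 and 156 against 236, 288, 191 and 140.1 (0.089 ± 0.25) and Notch1 at 277, 412, 401 and 564 against 267, 293, 334 and 379.9 (-0.34 ± 0.23). The other 5 tested differences lay between -0.18 (Notch3) and 0.20 (Hes1), with SEs of 0.24 to 0.60. With the 2 styles of sample label as a covariate, 0 members passed, and the differences of Notch1, Hey2 and Hes5 were -0.24, 0.49 and 0.44. Style went with the tamoxifen label in every one of these cortex libraries, so the 2 cannot be told apart. The hippocampus and olfactory bulb differences not given above had adjusted p-values of at least 0.877.

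**Figure D4:**
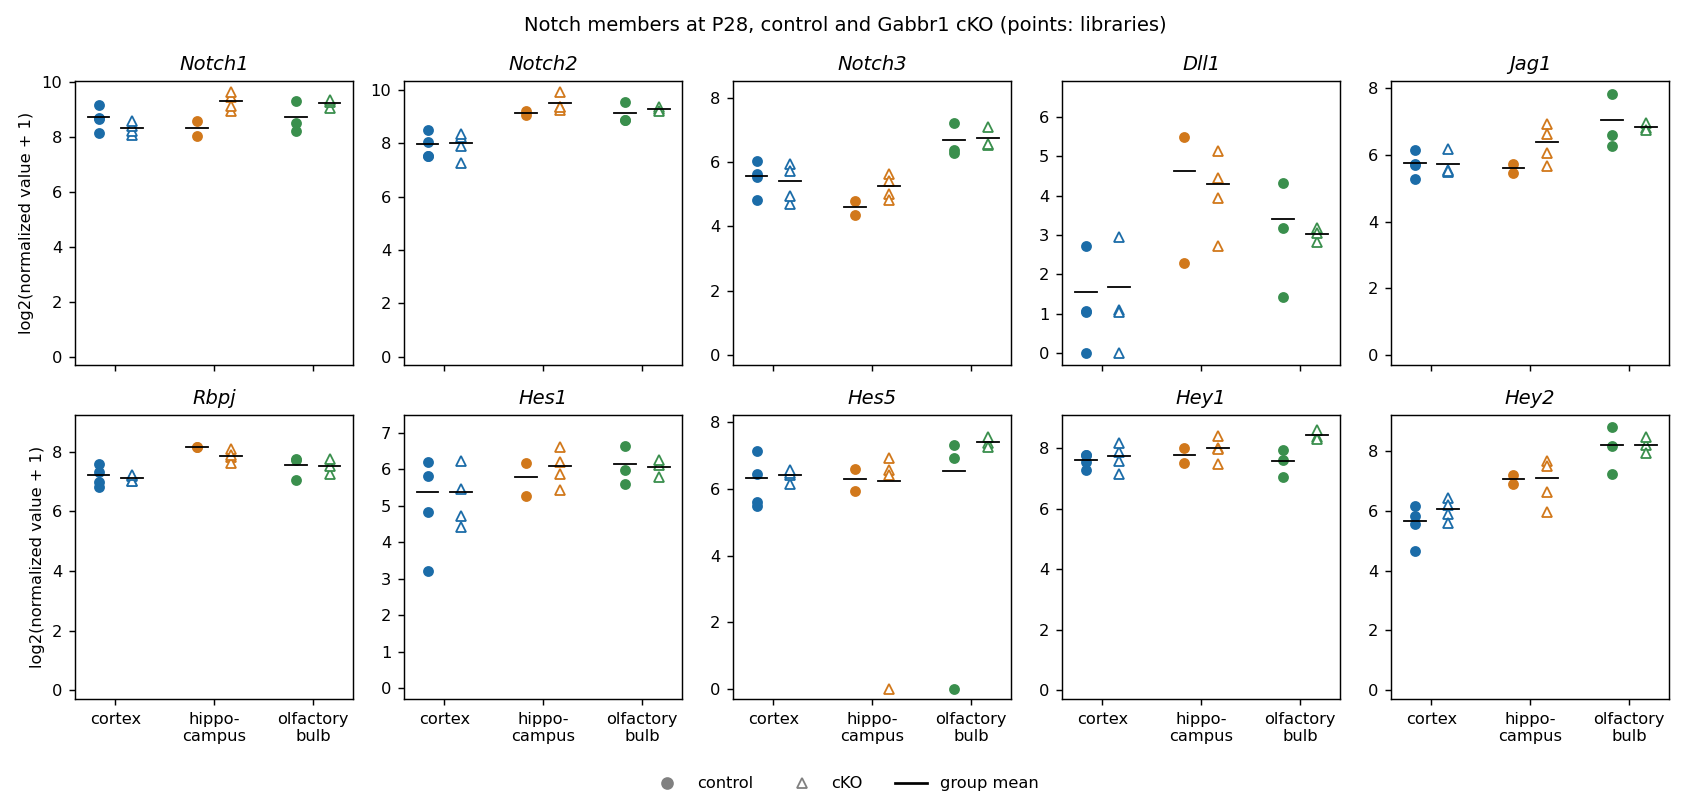
Each member at P28 as log2(normalized value + 1), control libraries as filled circles, cKO libraries as open triangles and group means as bars, by region. Hippocampal Notch1, Notch2, Notch3 and Rbpj (4 of 10) do not overlap by genotype, beside 15% of all genes. In olfactory bulb Hey1 (1 of 9 tested) does not, beside 10% of all genes. All of them miss the adjusted threshold. The 2 points at 0 for Hes5 are the libraries with under 1% of reads from Rn45s. Control and cKO libraries overlap for every cortical member.

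The rest of the pathway was read through a list of 51 further genes, grouped by role. From P1 to P14, cortex had 10 rises and 14 falls among 45 tested, hippocampus 9 and 11 among 43, and olfactory bulb 11 and 12 among 41. Those shares were at or below the 64.4%, 49.5% and 56.1% of all genes that changed. The median changes of the list, -0.06, -0.24 and -0.18, stood beside -0.27, -0.29 and -0.24 for all genes. Of 41 list genes tested in all 3 regions, 6 rose in each, beside 14% of all genes, and 7 fell in each, beside 17.8%. Those that rose were Dner, a neuron- and glia-linked non-canonical ligand; Adam17, a sheddase; Mib1, the ubiquitin ligase that primes ligands; Nrarp, a feedback inhibitor and itself a target; the co-activator Maml2; and the co-repressor Tle4. Those that fell were the sugar transferase Mfng, the co-activators Maml3 and Crebbp, the co-repressors Spen, Tle2 and Tle3, and Hes6, which opposes Hes1.

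Nrarp was among the 3 largest rises of the list in each region. Its cortex mean went from 145 ± 12 to 327 ± 27.8 (1.17 ± 0.12, adjusted p = 2.02e-06), its hippocampus mean from 119.6 ± 24.1 to 433 ± 107 (1.83 ± 0.24, 6.13e-05) and its olfactory bulb mean from 27.4 ± 8.33 to 221 ± 12.9 (3.01 ± 0.28, 7.19e-06). The other large cortical rises were Tle4 (0.85) and Mib1 (0.76). In hippocampus they were Heyl, a Hey family target, from 20.5 ± 4.99 to 71.7 ± 8.62, and Aph1a, a gamma-secretase subunit, from 45.5 ± 6.99 to 118 ± 35.4. Olfactory bulb had Heyl, from 8.42 ± 5.3 to 89.2 ± 53.9, and the Deltex ligase Dtx4, from 83.3 ± 9.85 to 557 ± 26.7. Heyl is also expressed in mural cells.

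Mfng and Tle2 were among the 3 largest falls in each region. Mfng went from 23.8 ± 3.42 to 4.55 ± 1.4 in cortex, from 61.8 ± 12.6 to 3.24 ± 5.61 in olfactory bulb and from 48.9 ± 7.05 to 0.597 ± 1.03 in hippocampus, where P14 held 1 read of it in all. Tle2 went from 37 ± 8.87 to 4.03 ± 3.08, from 22.7 ± 7.65 to 1.19 ± 2.07 and from 34.2 ± 6.53 to 2.5 ± 2.79 in cortex, hippocampus and olfactory bulb. The remaining large falls were the ligand Jag2 in cortex, from 28.9 ± 5.05 to 3.12 ± 5.51, and Maml3 in hippocampus and olfactory bulb, at -3.64 and -2.75.

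By role, the counts can be read against the all-gene shares given above (24% up and 40.3% down in cortex, 21% and 28.5% in hippocampus, 24.8% and 31.4% in olfactory bulb). Co-repressors had 1 rise and 4 falls of 6 tested in cortex, 1 and 4 of 6 in hippocampus, and 1 and 5 of 6 in olfactory bulb. Co-activators had 1 rise and 3 falls of 6 in each region. The cleavage machinery, which includes gamma-secretase, had 2 rises and no fall of 10 in cortex, 2 and 2 of 10 in hippocampus, and 2 rises and no fall of 9 in olfactory bulb. Ubiquitin ligases and endocytosis genes had 2 rises and 3 falls of 10, 2 and 0 of 9, and 2 and 2 of 9 in the same order. Enzymes that add sugars to the receptors had 2 rises and 1 fall of 5, 0 and 1 of 5, and 2 and 1 of 5. Further receptors and ligands were mostly too low to test, with 3, 2 and 1 of 7 tested. The ubiquitin ligase gene Dtx4 fell in cortex (-0.81 ± 0.15, adjusted p = 0.000295) and rose in hippocampus (1.02 ± 0.25, 0.00578) and olfactory bulb (2.73 ± 0.20, 1.1e-06). Between genotypes at P28, 0 of 39, 0 of 40 and 0 of 40 tested genes of the list were called in cortex, hippocampus and olfactory bulb with limma, and 0, 0 and 1 had an unadjusted p under 0.05.

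Neurod1, Neurog2 and Neurod4, genes of neuronal differentiation that Hes proteins are known to restrain, fell from P1 to P14 in each region where they could be tested. Neurod1 had means of 524 ± 127 at P1 against 1.13 ± 1.02 at P14 in olfactory bulb, 979.6 ± 46.1 against 40.0 ± 8.2 in hippocampus and 85.6 ± 11.5 against 0.629 ± 1.26 in cortex. Neurog2 had no read in the olfactory bulb P14 libraries, so it was at least 11.1-fold lower there than at P1 against a floor of 3 reads per library, and it went from 79.2 ± 22.5 to 3.54 ± 4.66 in hippocampus. Neurod4 fell in hippocampus, from 123 ± 26 to 1.84 ± 3.18. Neurog1 and Atoh1 were too low to test. Neuroblast and neuron marker sums were also lower at P14 in the 3 regions (neuron sums of 239 to 486 against 3713 to 4694 in cortex), and their part in these falls was not tested.

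**Figure D5:**
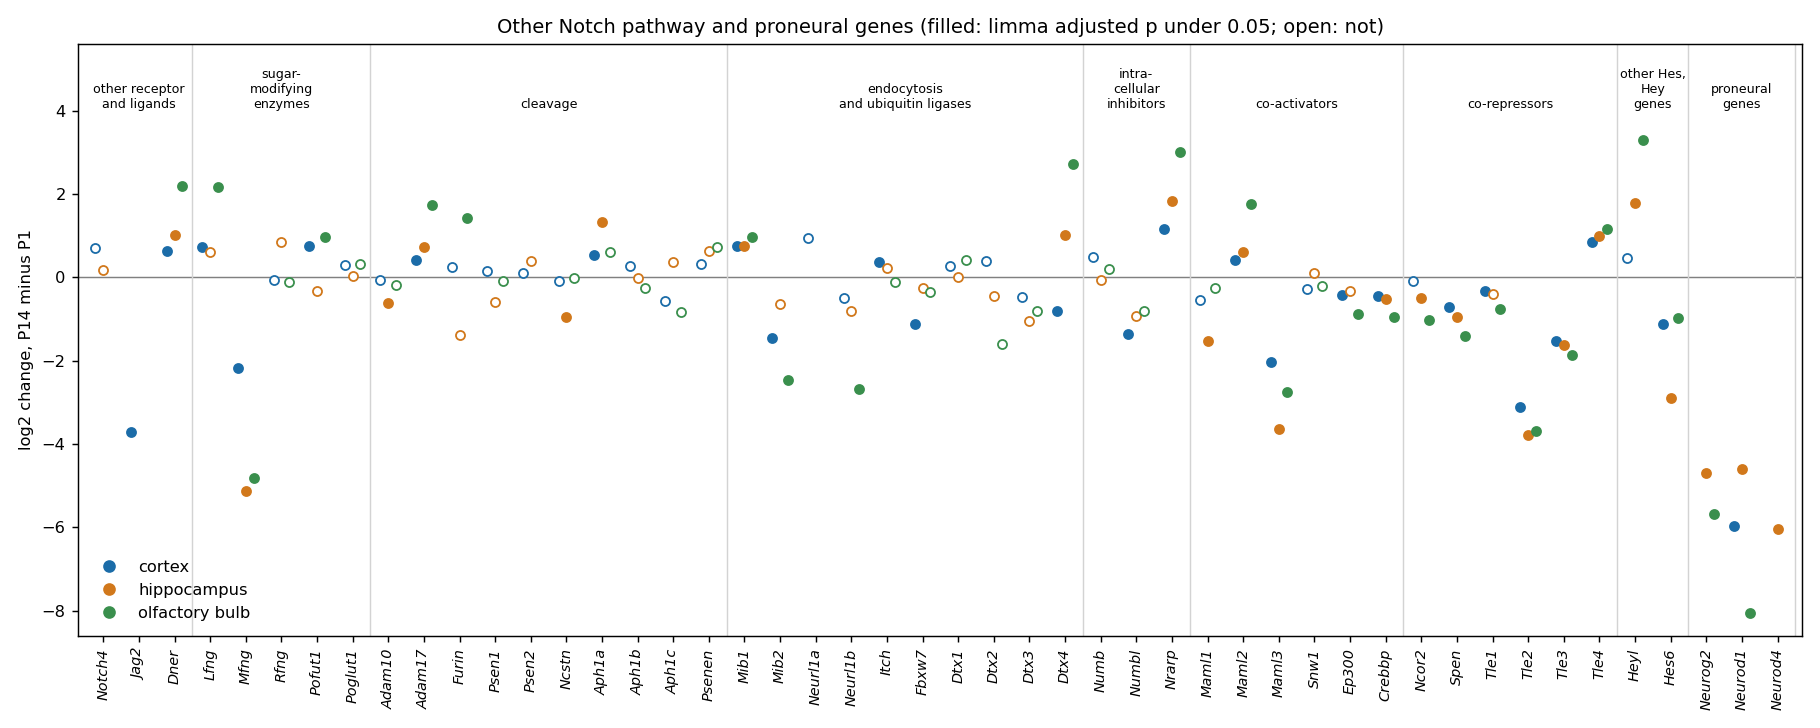
Log2 change from P1 to P14 of the further pathway genes, by role, and of Neurod1, Neurog2 and Neurod4, in the regions where they could be tested. Filled points passed an adjusted p of 0.05. Nrarp and Tle4 lie above 0 and Mfng, Maml3, Tle2, Tle3 and the tested genes of that trio below 0 in each region shown, with the widest spread between regions for Dtx4, at -0.81 in cortex and 2.73 in olfactory bulb.

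The genes whose course over the developmental libraries was most like that of Hes5 were Stard13, Dner and Pdgfrb, with a lowest Pearson r over the 3 regions of 0.894, 0.854 and 0.849 among 10395 genes. Dner is the ligand named above and Pdgfrb one of the mural markers. For Notch3 they were Slc6a9 (0.838), Spon1 (0.795) and C4b (0.785), and for Notch1 Zfp592 (0.780), Stom (0.777) and Lpar6 (0.734). These values run over 10 cortex, 9 hippocampus and 9 olfactory bulb libraries that share ages and cell makeup, and are descriptions without a test.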

How the data were processed

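RNA-seq libraries made with a low-input kit, per the labels' protocols, were deposited by the authors as 6 tables of normalized counts per gene, a signal with 24421 genes. Per the submitters' processing notes, mm10, STAR 2.5.0a and DESeq2 1.20.0 were used; the counting program, annotation and strand setting are not given in the sources used here. Each value divided by its library's smallest step gave whole reads (tolerance 0.02) in 100% of values. In olfactory bulb P28 cKO replicate 2 that step is itself a normalized value of about 1 (0.995), which makes this a weak check there. From date-like entries, 27 gene symbols were restored. Depth was 1773226 to 15008466 reads, so a value of 1 to 3 reads has a wide interval; intervals cover counting error only.

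Tests used limma 3.58.1 (R 4.3.3) with a mean-variance trend on log2(value + 1), over genes with a mean of at least 10 in the table and all groups of that table; this scale understates the change of low genes. P-values were adjusted by Benjamini-Hochberg over all genes, threshold 0.05. Region differences came from a joint fit of the 3 developmental tables. The scripts were tested on simulated data. Tried instead were TMM scaling, a minimum mean of 100 or none, pseudocounts of 0.1 and 8, quantile normalization, edgeR 4.0.16 and DESeq2 1.42.0 on the recovered reads, the 2 ages alone, label style, and each library left out.

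The members and gene lists were chosen with earlier results of these data known. All 10 members were named, with the 3 largest rises and falls of the wider list per region, proneural genes (1 of that list is not reported here), and the 3 genes most like Hes5, Notch3 and Notch1. Exon lengths and positions are from GENCODE release 21 for the mouse (23376 symbols matched). Figures used Python 3.11.15 and matplotlib 3.10.9.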

Additional observations from a re-analysis of the deposited data

Results flagged for a closer look

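Each member was checked in each group of 4 libraries, 40 checks in all, and in 3 of them 1 library stood far from the others by Dixon's ratio, where chance alone marks about 1 in 20. They were Notch2 at 969.215 in hippocampus P28 cKO replicate 2, a library that also has little Rn45s, Dll1 at 6.71612 in cortex P28 cKO replicate 4, and Jag1 at 71.1252 in cortex P28 cKO replicate 3.

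The P1 to P14 change differed between regions, by the joint limma test, for 14 pairs of member and regions. Of the 10838 genes tested, 14.2% differed between hippocampus and cortex. The shares were 23.5% for olfactory bulb and cortex and 18.2% for olfactory bulb and hippocampus. The calls of Notch3 (hippocampus minus cortex), Hes1 and Notch2 (olfactory bulb minus cortex) and Notch1 (olfactory bulb minus hippocampus) were lost under some alternatives, as given above. Hippocampus minus cortex, Notch3 differed by 1.32487. Olfactory bulb minus cortex, the differences were 0.963494 for Notch2, 3.39765 for Notch3, 2.39265 for Hes1, 2.40707 for Hes5, 2.1648 for Hey1 and 2.87861 for Hey2. Olfactory bulb minus hippocampus, they were 1.01409 for Notch1, 1.37069 for Notch2, 2.07277 for Notch3, 3.78486 for Hes1, 2.79052 for Hes5, 2.21235 for Hey1 and 3.96545 for Hey2.

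From P7 to P14 a pair of genes went in opposite directions. Notch3 fell in cortex (-0.67319) and rose in olfactory bulb (1.71), and Hes5 fell in hippocampus (-0.943416) and rose in olfactory bulb (1.51), and in both cases the difference was not tested.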

How the results depend on the processing

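Of 62 called changes and region differences of the members, 0 turned sign. Under every alternative that tested the gene, 38 kept their call, while 24 lost it under at least 1. Members below the minimum mean of 100 were not tested under that setting, which was not counted as a loss. TMM or quantile scaling ended 12 calls. For changes inside a region, edgeR ended 6 and DESeq2 5, and neither was run for the region differences. No paired analysis was possible because replicate numbers follow accession order only. Library number and, for Dll1 at P14, 3 to 23 reads per region limit precision. Causes of the changes below were not tested, except that a minimum mean of 100 leaves fewer members tested.

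Cortical members changed from P7 to P14 numbered 4 under TMM, edgeR or DESeq2. With a minimum mean of 100 the counts were 3 (cortex P14 against P1), 2 (hippocampus P14 against P7), 1 (olfactory bulb P7 against P1 and P14 against P7) and 3 (olfactory bulb P14 against P1). Region differences then numbered 0 (hippocampus and cortex, also under TMM and quantile), 2 (olfactory bulb and cortex) and 3 (olfactory bulb and hippocampus). Leaving out 1 library gave 4 to 7 (cortex P7 against P1), 1 to 5 (hippocampus P14 against P7), 3 to 8 (hippocampus P14 against P1), 1 to 5 (olfactory bulb P7 against P1) and 0 to 3 (hippocampus and cortex).

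Sign turned only in log2 differences that had not passed. These were cortical Rbpj P7 against P1 (TMM 0.02375, edgeR 0.003498), Hes5 P14 against P7 (TMM 0.1433, quantile 0.07587, edgeR 0.1159, DESeq2 0.1417) and Jag1 P14 against P1 (TMM 0.1203, quantile 0.3388, edgeR 0.09767, DESeq2 0.1144). Hippocampal P7 against P1 gave Dll1 0.293 and Jag1 0.06741 with edgeR and 0.2858 and 0.06331 with DESeq2. By genotype in cortex they were Hes1 -0.003347 (DESeq2) and, with the label style, Hey1 -0.01019, Jag1 0.006081 and Rbpj 0.02964. In hippocampus they were Dll1 -0.009455 (pseudocount 8), -0.3467 (edgeR) and -0.3495 (DESeq2) and Hey2 0.005444 (edgeR) and 0.01775 (DESeq2). In olfactory bulb they were Hes1 0.01016 (TMM) and Rbpj -0.01646 (edgeR) and -0.02731 (DESeq2). Between regions they were Rbpj, hippocampus minus cortex (pseudocount 8 -0.0002916, TMM -0.2377, quantile -0.2453), Dll1, olfactory bulb minus cortex (pseudocount 8 -0.3558, quantile -0.7156) and Jag1, olfactory bulb minus hippocampus (quantile -0.1467).

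Ranges over left-out libraries that cross 0 were, for cortex, Dll1 -0.5552 to 0.1223 (P7 against P1), Hes5 -0.1316 to 0.08956 (P14 against P7), and Hes1 -0.3512 to 0.7092, Jag1 -0.515 to 0.1084 and Notch2 -0.05631 to 0.2514 (P14 against P1). For hippocampus they were Dll1 -0.8322 to 0.728, Hey2 -0.1693 to 0.04226 and Jag1 -0.3488 to 0.3355 (P7 against P1), Hey2 -0.02597 to 0.43, Notch3 -0.07346 to 0.2694 and Rbpj -0.1587 to 0.01967 (P14 against P7), and Hey2 -0.06394 to 0.3921 (P14 against P1). For olfactory bulb they were Notch1 -0.1196 to 0.3057 (P7 against P1), and Jag1 -1.804 to 0.07317 and Rbpj -0.499 to 0.01997 (P14 against P7). By genotype in cortex they were Hes1 -0.4033 to 0.5935, Hey1 -0.07112 to 0.2745, Jag1 -0.1901 to 0.1155, Notch2 -0.1062 to 0.254, Notch3 -0.4093 to 0.03361 and Rbpj -0.1835 to 0.07537. In hippocampus they were Dll1 -1.419 to 1.764, Hes1 -0.1285 to 0.7586, Hes5 -1.955 to 0.3519, Hey1 -0.04905 to 0.4601 and Hey2 -0.3703 to 0.2074, some with 1 control assumed to vary like the rest. In olfactory bulb they were Hes1 -0.2686 to 0.2491, Hey2 -0.2826 to 0.5053, Jag1 -0.363 to 0.4155, Notch3 -0.08369 to 0.3959 and Rbpj -0.2243 to 0.1257. Between regions they were Hey1 -0.2337 to 0.2088 and Rbpj -0.07388 to 0.1254 (hippocampus minus cortex), Dll1 -0.4045 to 0.9747 (olfactory bulb minus cortex) and Jag1 -0.4922 to 1.385 (olfactory bulb minus hippocampus).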
